A study of Felis catus with 6 samples.

Results

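Enzymes that write and remove methyl groups on histones and DNA were described in PETCC2610, a kidney cell line of the domestic cat (Felis catus). The 7 genes were KMT2A, KMT2C, KMT2D, SETD1B and ASH1L, which encode histone lysine methyltransferases, PHF8, which encodes a histone lysine demethylase, and TET3, which encodes a DNA dioxygenase. They were taken by name from the 633 genes of the authors' deposited table of differences. All cells had received DOX, the agent with which senescence was induced, an abbreviation that the labels do not spell out. One group of 3 libraries had DOX alone (DOX). The other group of 3 libraries also had peptide E (DOX+PeptideE), which the series title traces to a fermentation of Bifidobacterium adolescentis LA20-k9. Doses, times and the passage of the cells are not stated. All libraries come from 1 cell line, and a group without DOX was not analysed here. The libraries of a group are called biological replicates by the submitters, without saying how the cultures were kept apart.

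Methylation of histone lysines is set by enzymes with a SET domain, which take the methyl group from S-adenosylmethionine. KMT2A, KMT2C, KMT2D and SETD1B methylate histone H3 at the residue called H3K4, a mark of promoters and enhancers, and work in large complexes with shared subunits. ASH1L acts on another residue of histone H3, called H3K36. Demethylases of the Jumonji family, to which PHF8 belongs, and the TET enzymes both use iron and 2-oxoglutarate. TET enzymes oxidize 5-methylcytosine, the first step of active DNA demethylation. Chromatin is reorganized in senescent cells, and changes of histone methylation are part of that state.

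The 7 genes were selected on the fold changes and p-values of the authors' comparison of these same 6 libraries. Their difference between the groups is therefore given as a description, with no test. In the authors' deposited table every listed gene has an unadjusted p of at most 0.0498. The lowest fold listed as higher was 1.5, and 293 genes (46.3%) were listed higher. The authors' deposited table gave the 7 genes folds from 1.52 (KMT2C) to 1.82 (SETD1B), against a median of 1.64 over all genes listed higher. KMT2C lay nearest to the lowest listed fold, with 26 genes listed higher below it. Genes just outside the table were not analysed here. RefSeq genes of the cat assembly F.catus_Fca126_mat1.0 included all 7 symbols. The authors' build is not named, so no positions are given.

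Values are the authors' normalized expression values, whose unit is not stated. It is therefore not known whether they are per length, and levels are compared between libraries and not between genes. Over the listed genes the library sums ranged from 34274 to 39465 with DOX and from 25082 to 33457 with peptide E, so the groups did not overlap in this sum. These sums are no measure of depth, and their part in the results was not tested. They run over genes that the authors listed as different between these groups. Where values averaged 100 or more, 0 of 37 listed genes were higher with peptide E, and between 10 and 100 it was 35 of 111. A lower sum with peptide E follows in part from that selection, so nothing is read from the lack of overlap. In bulk RNA a change in the number of cells of a type and a change in RNA per cell cannot be told apart. Of 23 fixed markers of kidney tubule epithelium 5 were listed (KRT7, KRT18, KRT19, AQP1 and HAVCR1), and none of them was at 0 in any library. All 5 were listed lower with peptide E, with a summed value of 864 to 1100 in the DOX libraries and 580 to 783 in the peptide E libraries. Of 14 fibroblast and mesenchymal markers only S100A4 was listed, at 249 to 274 with DOX and 143 to 188 with peptide E. No endothelial or immune marker was listed. The part of these markers in the results below was not tested.

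Among the H3K4 methyltransferases, KMT2A, the mixed-lineage leukaemia gene, had values of 1.86, 1.75 and 1.53 in DOX replicates 1, 2 and 3 and of 2.22, 3.73 and 4.64 in peptide E replicates 1, 2 and 3. Every peptide E library lay above every DOX library, and peptide E replicate 1 lay far below the other two. The means were 1.71 ± 0.168 and 3.53 ± 1.22 (SD, n = 3 each), a fold of 2.06 on the deposited values. On the log2(value + 1) scale, which makes the change of weakly expressed genes look smaller, the difference was 0.70 with a standard error of 0.21.

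KMT2C and KMT2D encode paralogous enzymes best known for methylation at enhancers, and whether reads could be shared between the genes was not tested. KMT2C was at 0.97, 1.01 and 1.0 in the DOX libraries and at 1.34, 1.81 and 2.49 in the peptide E libraries. The DOX libraries were nearly equal (0.993 ± 0.0208, SD, n = 3), while the peptide E libraries spread widely (1.88 ± 0.578, SD, n = 3). The fold of the means was 1.89, and the difference on the log2(value + 1) scale was 0.51 with a standard error of 0.18. For KMT2D the DOX libraries were at 0.86, 0.64 and 0.79 and the peptide E libraries at 0.92, 1.76 and 2.08. Here the groups barely separated, since peptide E replicate 1 was only 1.07 times the highest DOX library. The means of KMT2D were 0.763 ± 0.112 and 1.59 ± 0.599 (SD, n = 3 each), a fold of 2.08 and a difference of 0.53 on the log2(value + 1) scale (standard error 0.19).

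SETD1B, the catalytic subunit of a separate H3K4 methyltransferase complex, was at 0.72, 0.63 and 0.50 with DOX and at 0.93, 1.53 and 1.68 with peptide E. Its means were 0.617 ± 0.111 and 1.38 ± 0.397 (SD, n = 3 each), and its fold of 2.24 was the second highest of the 7 genes. On the log2(value + 1) scale its difference was 0.55 with a standard error of 0.16. SETD1B, KMT2C and KMT2D had DOX means under 1, so these 3 genes passed the minimum for fitting only through the peptide E group. All values have 2 decimals, so a value of 0.50 carries a rounding of up to 0.005.

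ASH1L, the H3K36 methyltransferase, had the highest fold on the deposited values. It was at 2.15, 2.57 and 1.95 in the DOX libraries and at 3.30, 5.48 and 6.78 in the peptide E libraries. The groups did not overlap, with means of 2.22 ± 0.316 and 5.19 ± 1.76 (SD, n = 3 each), a fold of 2.33, and a difference of 0.90 on the log2(value + 1) scale (standard error 0.22). The authors' deposited table gave ASH1L a fold of 1.71, below that of SETD1B. After division by the library factors described below, ASH1L still had the highest fold, at 1.91 against 1.84 in SETD1B. The source of the difference from the authors' order was not tested.

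The demethylase gene PHF8, whose product removes methyl groups from H3K9 and H4K20 and binds methylated H3K4 through its PHD finger, was at 1.69, 1.46 and 1.59 with DOX. With peptide E it was at 2.23, 3.34 and 3.68. Its means were 1.58 ± 0.115 and 3.08 ± 0.758 (SD, n = 3 each), a fold of 1.95 and a difference of 0.65 on the log2(value + 1) scale (standard error 0.19). As deposited, PHF8 had the least relative spread of the 7 genes in the peptide E group, a coefficient of variation of 24.6%, against 28.8% to 37.8% in the others. After division by the library factors described below, the peptide E means were 2.54 ± 0.555 in PHF8 and 1.53 ± 0.336 in KMT2C (SD, n = 3 each). The relative spread of PHF8 and KMT2C was then nearly equal.

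TET3, the TET dioxygenase, was at 1.48, 1.52 and 1.53 in the DOX libraries and at 2.11, 3.05 and 4.13 in the peptide E libraries. Its means were 1.51 ± 0.0265 and 3.10 ± 1.01 (SD, n = 3 each), and the fold was 2.05. The difference on the log2(value + 1) scale was 0.68 with a standard error of 0.20. TET3 was the gene with the widest clearance between groups, with its lowest peptide E library 1.38 times its highest DOX library.

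**Figure D1:**
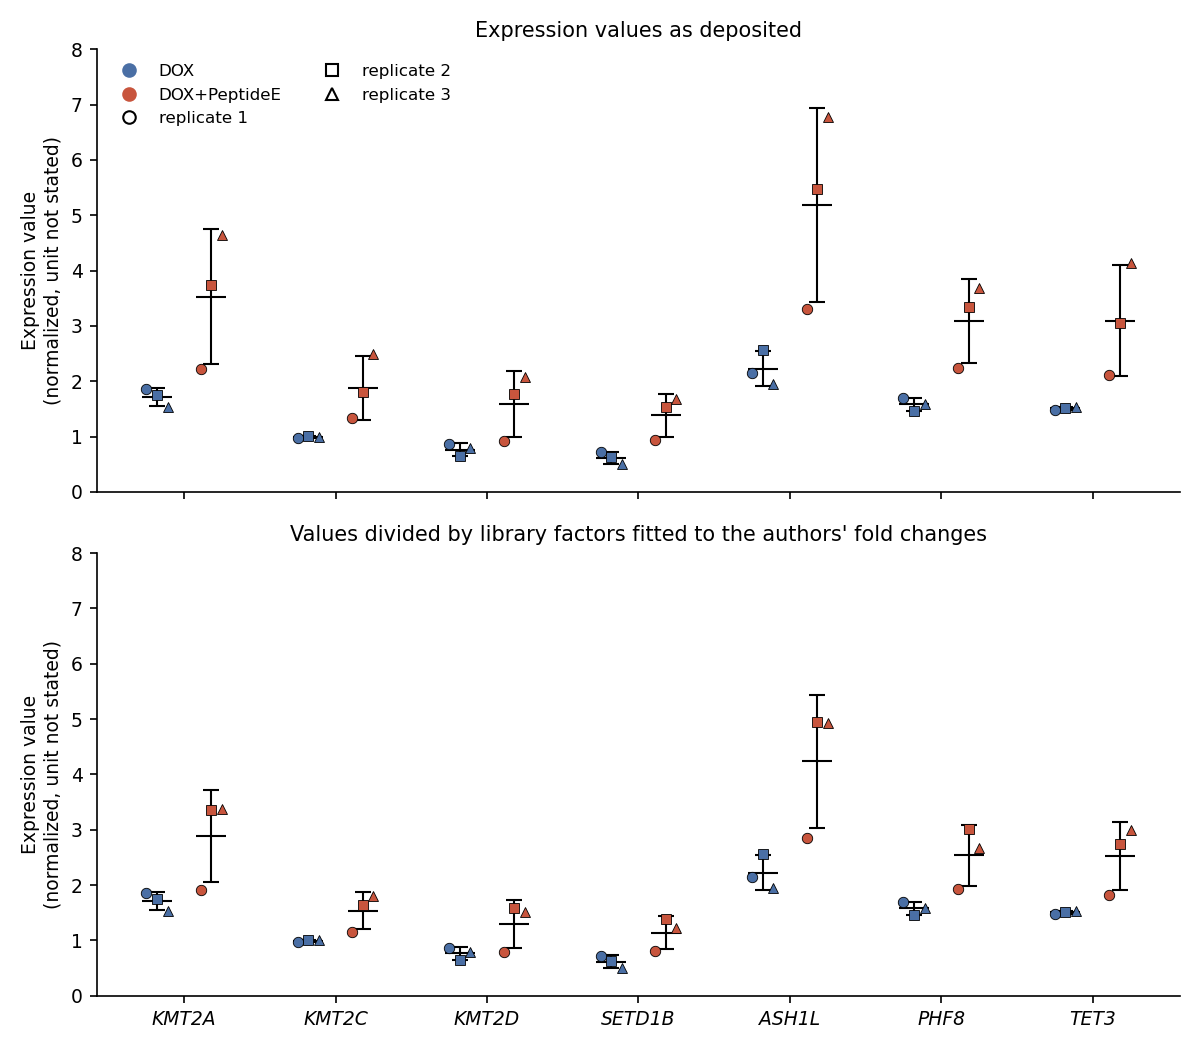
Expression values (vertical axis, normalized, unit not stated) of the 7 genes in each library, as deposited (upper panel) and after division by library factors fitted to the authors' fold changes (lower panel); points are libraries, with shape for the replicate number, and bars are the mean ± SD of 3 libraries. As deposited, all peptide E libraries lie above all DOX libraries for each gene; after rescaling KMT2D overlaps, with peptide E replicate 1 at 0.795 against 0.86 in DOX replicate 1.

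The groups did not overlap, with peptide E on the higher side, in 7 of 7 genes, against 43.4% of all 633 listed genes and 93.7% of the 286 other genes listed higher. Since the authors' selection favours such genes, nothing is read from this count. Across the 7 genes the median difference on the log2(value + 1) scale was 0.65, against 0.74 over the 242 fitted genes listed higher and -0.22 over all 499 fitted genes. As this scale shrinks the change of weakly expressed genes, no weaker change of the 7 is read from it. The authors' folds of the 7 genes, 1.52 to 1.82, lay on both sides of the median of 1.64 over all genes listed higher.

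The peptide E libraries differed from one another in the same way in each of the 7 genes. Peptide E replicate 1 held the lowest and peptide E replicate 3 the highest of the 3 values in 7 of 7, and the same held in 78.0% of the 286 other genes listed higher. Relative to the DOX mean, the values in replicate 1 were between 1.21-fold (KMT2D) and 1.51-fold (SETD1B), and those in replicate 3 between 2.33-fold (PHF8) and 3.05-fold (ASH1L). Replicate 3 exceeded replicate 1 by 1.65-fold in PHF8 and by 2.26-fold in KMT2D. The numbers name separate libraries and carry no dose or time. The DOX libraries showed no such common order: the highest was replicate 1 in KMT2A, KMT2D, SETD1B and PHF8, replicate 2 in KMT2C and ASH1L, and replicate 3 in TET3. The median coefficient of variation of the 7 genes was 9.81% with DOX and 32.6% with peptide E, and in the other genes listed higher it was 10.6% and 27.5%.

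**Figure D2:**
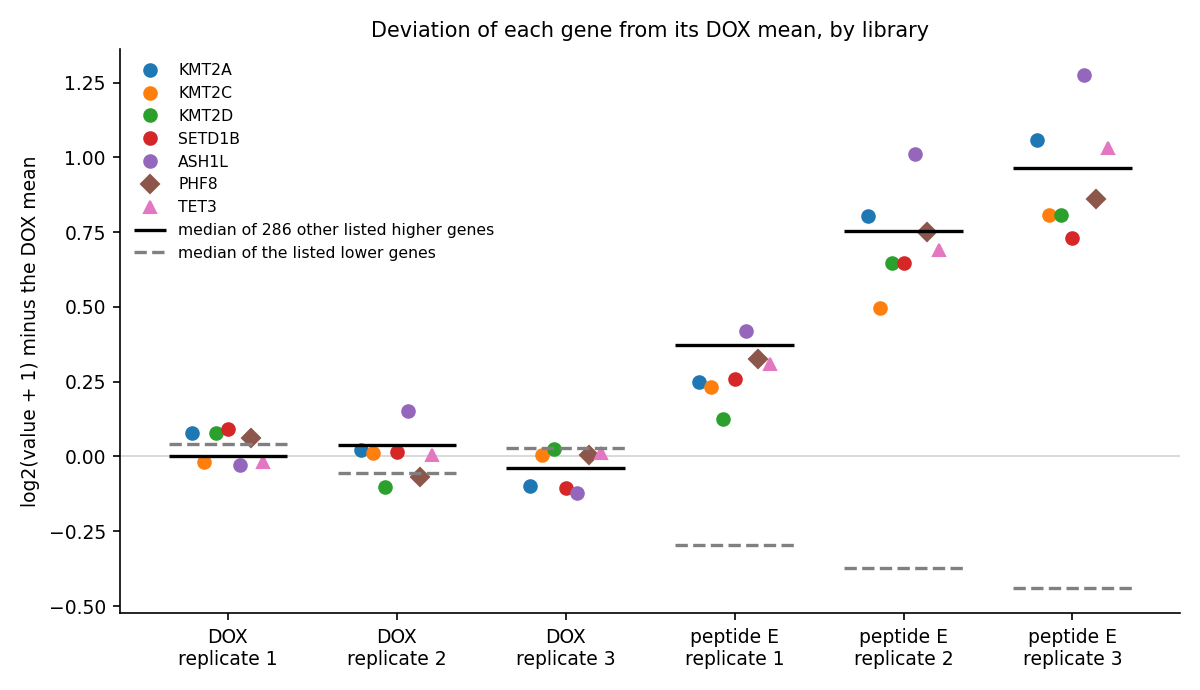
Difference of log2(value + 1) from the gene's own DOX mean (vertical axis) in each of the 6 libraries (horizontal axis); circles are methyltransferases, the diamond is PHF8 and the triangle TET3, and lines are medians of the other listed genes. The members' median is 0.26, 0.69 and 0.86 in peptide E replicates 1, 2 and 3, below the medians of the 286 other genes listed higher in each (0.37, 0.75 and 0.97).

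This order depended in part on how the libraries were scaled. The fold of the deposited means exceeded the fold of the authors' deposited table in all 7 genes, by 0.28 to 0.34 on the log2 scale in 6 of them and by 0.45 in ASH1L. Over the 476 listed genes with a mean of at least 1 the median excess was 0.28, and in 12 of them (2.52%) it was as large as in ASH1L or larger. Library factors fitted to the authors' fold changes were 1.16, 1.11 and 1.38 for peptide E replicates 1, 2 and 3 and close to 1 for the DOX libraries. After division by these factors, replicate 1 was still the lowest peptide E library in 7 of 7 genes, but replicate 3 was the highest in only 3 (KMT2A, KMT2C and TET3) and replicate 2 in the other 4. In KMT2A the rescaled values of replicates 2 and 3 were 3.36 and 3.37, and in ASH1L they were 4.94 and 4.92, so these pairs were nearly equal. Among the 286 other genes listed higher, replicate 1 was then the lowest in 240 and replicate 3 the highest in 117. Replicate 1 lowest with replicate 3 highest held in 37.1% of these genes.

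On the rescaled values the groups did not overlap in 6 of 7 genes, against 38.2% of all listed genes and 82.5% of the 286 other genes listed higher. The exception was KMT2D, whose peptide E replicate 1 stood at 0.795, within the DOX libraries (0.639 to 0.86). KMT2A was close to overlap, at 1.92 in peptide E replicate 1 against 1.86 in DOX replicate 1. The rescaled folds ran from 1.54 (KMT2C) to 1.91 (ASH1L), and that of ASH1L stayed above the authors' fold of 1.71. In replicate 1 alone the rescaled excess over the DOX mean was small, from 1.04-fold in KMT2D to 1.30-fold in SETD1B. In replicate 2 it was 1.64-fold to 2.24-fold, and in replicate 3 it was 1.69-fold to 2.21-fold.

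The methyltransferases as a set were then placed beside the demethylase and TET3. Enzymes that add and enzymes that remove methyl groups were higher by like amounts in the same libraries. Both sets were taken from genes listed higher by the authors, at a fold of at least 1.5. Their like direction and size follow in part from that selection, so nothing particular to these enzymes is read from them. On the log2(value + 1) scale the mean deviation of the 5 methyltransferases was 0.26, 0.72 and 0.94 in peptide E replicates 1, 2 and 3, and that of PHF8 and TET3 was 0.32, 0.72 and 0.95. In these libraries the 286 other genes listed higher had median deviations of 0.37, 0.75 and 0.97. Over all libraries the difference between the methyltransferases and the set of PHF8 and TET3 was -0.02. It was 0.05 with a pseudocount of 0.1 and 0.07 without a pseudocount, so it had no settled sign.

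Ratios of 2 genes within a library do not depend on a factor common to that library. The ratio of KMT2A to PHF8 was 1.10, 1.20 and 0.962 in the DOX libraries and 0.996, 1.12 and 1.26 in the peptide E libraries, and the groups overlapped. The ratio of ASH1L to PHF8 had the largest shift, from 1.42 ± 0.296 to 1.65 ± 0.182 (SD, n = 3 each), and its groups also overlapped. Of the 10 ratios of a methyltransferase to PHF8 or TET3, 9 overlapped between the groups. Ratios among other genes listed higher were not computed, so nothing particular to these enzymes is read from this count. The means of the 10 ratios with peptide E were 0.928 to 1.17 times those with DOX, higher in 6 and lower in 4.

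The ratio of KMT2C to TET3 was the exception. It was 0.655, 0.664 and 0.654 in the DOX libraries and 0.635, 0.593 and 0.603 in the peptide E libraries, each below every DOX library. The means were 0.658 ± 0.00583 and 0.610 ± 0.0218 (SD, n = 3 each). Its size was 0.928-fold, it was picked out of 10 ratios after they were seen, and it was not tested. TET3 to PHF8, the ratio of both removing enzymes, was 0.960 ± 0.0827 with DOX and 0.994 ± 0.112 with peptide E (SD, n = 3 each), and overlapped.

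**Figure D3:**
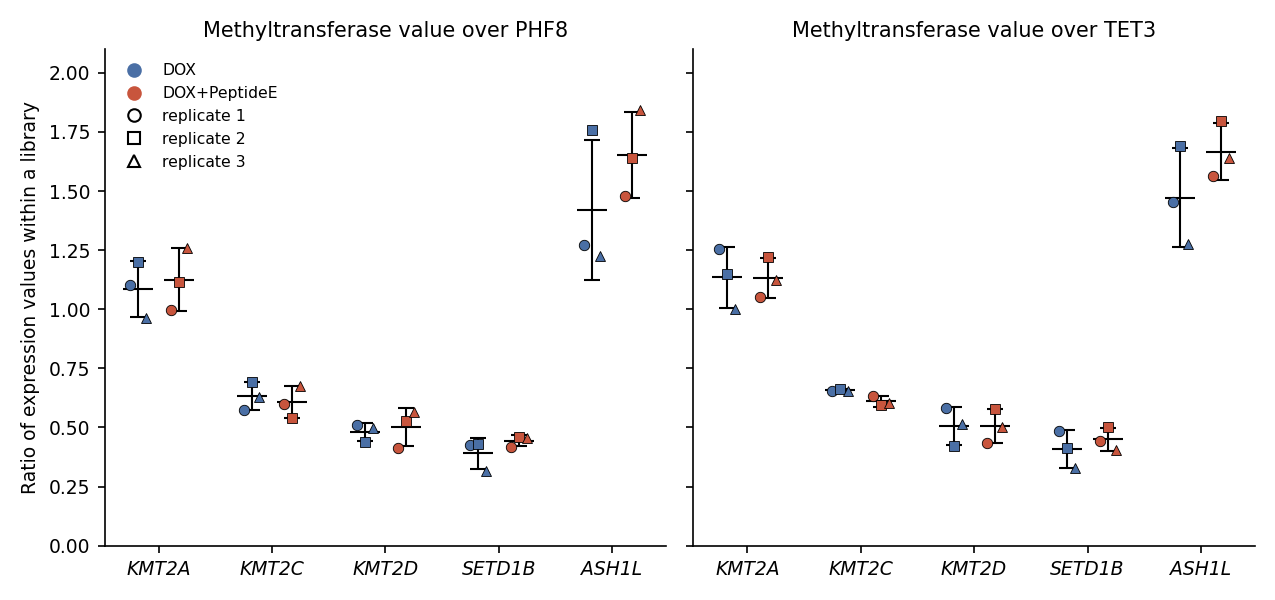
Ratio of each methyltransferase's expression value to that of PHF8 (left) or TET3 (right) within the same library (vertical axis), with points for libraries and bars for the mean ± SD of 3 libraries. The groups overlap in 9 of the 10 ratios, the exception being KMT2C over TET3. Ratios among other listed genes were not computed for comparison.

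Few other genes of these pathways were listed. Of 31 further histone lysine methyltransferases 1 was listed, PRDM2, which encodes a PR/SET domain protein. PRDM2 was at 3.43, 3.74 and 2.70 with DOX and at 4.52, 6.13 and 7.55 with peptide E, and the groups did not overlap. PRDM2 rose in the limma fit, by 0.70 ± 0.20 (standard error) on the log2 scale, with an adjusted p of 0.0120 by the Benjamini-Hochberg method. With DOX replicate 3 left out the limma adjusted p was 0.0552, and with peptide E replicate 2 left out it was 0.0520, so the call did not hold in either case. The authors listed PRDM2 from the same libraries, so this limma p is no independent evidence, and the same holds for each listed gene below.

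Among 16 partner subunits of the KMT2 and SETD1 complexes, 1 was listed, BOD1L1, whose product is a partner of the SETD1 enzymes. BOD1L1 was at 1.09 ± 0.144 with DOX and rose to 2.32 ± 0.856 with peptide E (SD, n = 3 each). Its log2 fold change by limma was 0.64, with an adjusted p of 0.0155. The limma adjusted p was 0.0581 with DOX replicate 1 left out and 0.0565 with peptide E replicate 2 left out. The core subunits WDR5, RBBP5, ASH2L and DPY30 were not listed. No further gene was listed among 23 other histone demethylases, 21 other DNA methylation enzymes and readers, 32 genes of the Polycomb repressive complexes and 9 protein arginine methyltransferases. Unlisted genes were not analysed here, and whether they differ is not known. Of 16 genes of S-adenosylmethionine and 2-oxoglutarate supply, MTR, the gene of methionine synthase, was the only one listed. MTR was at 0.54, 0.62 and 0.52 with DOX and at 0.65, 1.20 and 1.20 with peptide E, and the groups did not overlap as deposited. On the rescaled values they overlapped, with peptide E replicate 1 at 0.561 against 0.619 in DOX replicate 2. Like SETD1B, KMT2C and KMT2D, MTR passed the minimum for fitting only through the peptide E group, so its limma values are given as a description. Its limma log2 fold change was 0.36 (adjusted p = 0.0547). The limma adjusted p was 0.034 without the filter and 0.0042 without peptide E replicate 1, while after median-centring the log2 fold change was 0.06 (adjusted p = 0.635).

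Acetyltransferase coactivators and chromatin remodelers, which also act on histones and nucleosomes, were taken for comparison. Of 43 such symbols 7 were listed, all higher, and limma called 7 of 7 higher, against 47.5% of all fitted genes called higher and 23.6% called lower. The authors had listed these 7 higher from the same libraries. Of the 499 fitted genes 242 were listed higher, and limma called 237 higher, so nothing is read from the 7 of 7. The limma log2 fold changes of the 7 genes ran from 0.62 to 0.82 with a median of 0.79. Without peptide E replicate 2, 4 of the 7 were called, all but EP300, CREBBP and BPTF. Over all fitted genes limma called 237 higher and 118 lower as deposited, 219 higher and 246 lower with the fitted library factors, and 188 higher and 250 lower with median-centred libraries.

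BAZ2A, a subunit of a nucleolar remodeling complex, rose from 6.11 ± 0.283 to 11.7 ± 3.27 (SD, n = 3 each). TRRAP, a scaffold subunit of acetyltransferase complexes, rose from 1.86 ± 0.146 to 4.05 ± 1.25 (SD, n = 3 each). The paralogous acetyltransferase genes EP300 and CREBBP rose from 2.33 ± 0.161 to 5.07 ± 2.08 and from 2.59 ± 0.123 to 5.19 ± 1.62 (SD, n = 3 each). The EP300 and CREBBP calls were lost without peptide E replicate 2 (limma adjusted p of 0.0543 and 0.0512). ARID1A, a subunit of SWI/SNF remodelers, rose from 3.83 ± 0.405 to 7.65 ± 2.02 (SD, n = 3 each). Its paralogue ARID1B was at 5.37, 5.20 and 7.60 with peptide E, so as deposited replicate 1 was not its lowest peptide E library. On the rescaled values it was at 4.64, 4.69 and 5.52, with replicate 1 the lowest, as in the 7 methylation genes.

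**Figure D4:**
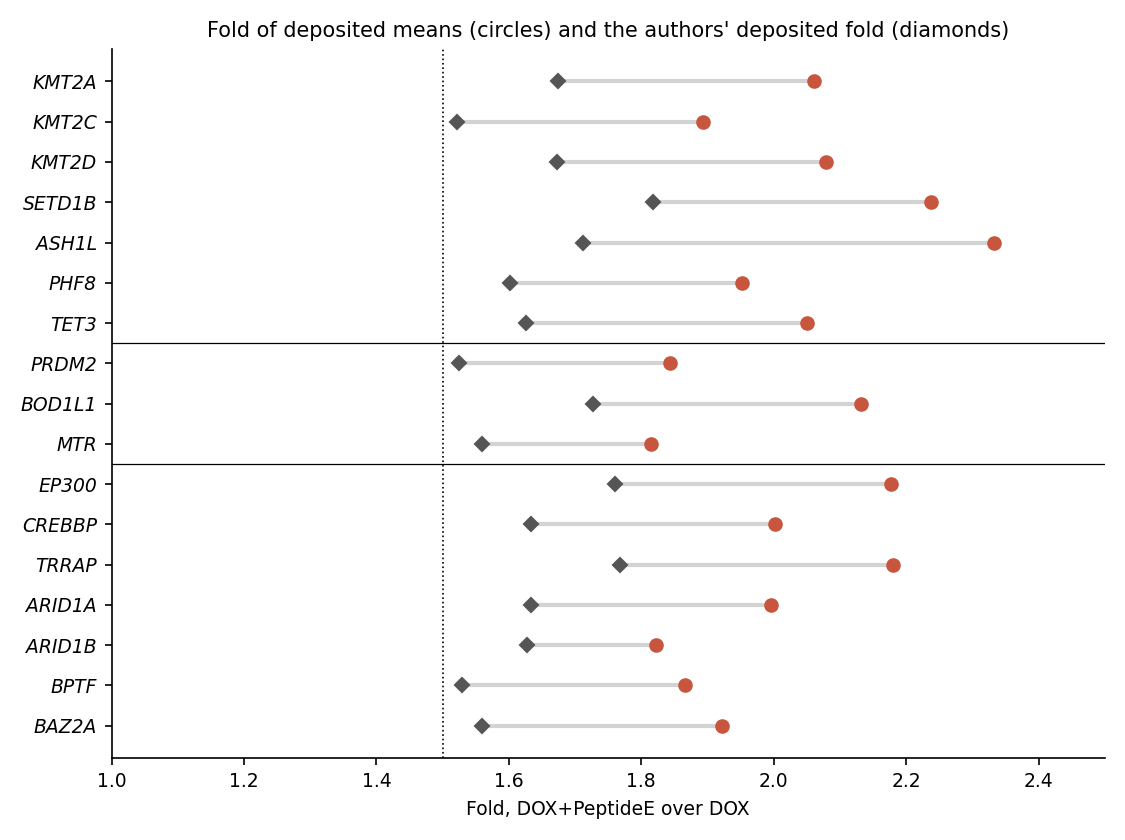
Fold of DOX+PeptideE over DOX (horizontal axis) from the deposited group means (circles) and in the authors' deposited table (diamonds) for the 7 genes (top), the 3 other listed methylation and one-carbon genes (middle) and the 7 coactivator and remodeler genes (bottom); the dotted line is at 1.5. Each circle lies to the right of its diamond, with the widest gap in ASH1L (2.33 against 1.71).

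Outside these lists, 5 genes with a symbol had profiles nearest to the mean profile of the 7 genes. Likeness was measured as the root mean square difference of log2(value + 1) from the DOX mean over 6 libraries, among 396 listed genes with a mean of at least 1. The nearest was HECTD4, which encodes a HECT domain protein, at a difference of 0.0341. TSHZ1, a zinc finger gene, lay at 0.0373, TBC1D8, a TBC domain gene, at 0.0417, ZZEF1 at 0.0431 and WWC3 at 0.0507. HECTD4 was at 1.68, 1.63 and 1.53 with DOX and at 2.30, 3.15 and 3.98 with peptide E. The members themselves lay between 0.0520 (TET3) and 0.205 (ASH1L) from their own mean profile. The 5 genes were picked as the smallest of these differences and the members were not, so the distances of both are given as a description.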

How the data were processed

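PolyA RNA was sequenced as pairs of 150 bases from 6 libraries of PETCC2610 cells, 3 per group, placed by their titles. FastQC 0.11.9 and fastp 0.19.5 were used, per the submitters' processing notes; aligner, counter, genome build, annotation and strand were not given in the sources used here. For 633 genes the authors' deposited table holds an expression signal per library, with 2 decimals and a normalization that is not stated, and the authors' group means. Beside them stand the authors' fold change as a ratio, its log2 value, and the authors' p-values, per the file headers. The values are not read counts, so depth is unknown and precision rests on the spread between libraries.

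The members and gene lists were chosen with earlier results of these data known. Members are therefore described without p-values. From the signal, log2(value + 1), group means and SD, within-library ratios and limma fits (limma 3.58.1, R 4.3.3, trended variance) were computed. Fitted were genes whose mean reached 1 in either group, with Benjamini-Hochberg adjustment over 499 genes and a threshold of 0.05. Its p-values measure only the spread between these libraries. The fit was tested on data simulated with independent noise for each gene. Deviations shared by many genes within a library were not simulated. Library factors were fitted to the authors' fold changes in 196 genes whose mean reached 5 in each group, leaving a median absolute gap of 0.0073 on the log2 scale. Dividing by them gives the rescaled values. These factors come from the fold changes on which the genes were listed.

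Named were the 7 members, every listed gene of the methylation lists, the 6 listed remodeler genes with the highest means, and the 5 genes nearest in profile. The list counts omit 1 gene, which is not reported here. Other genes were named after their values were seen. Alternatives were other pseudocounts, filters and scalings, a replicate block, and leaving out each library.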

Additional observations from a re-analysis of the deposited data

How the results depend on the processing

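The 7 members stayed higher with peptide E in every limma setting that fitted them. The members were selected as higher from these same libraries, so their kept direction is no independent evidence. The median log2 fold change over them was 0.94 with a pseudocount of 0.1, 0.98 without one (chosen after seeing the data), 0.29 with a pseudocount of 5 and 0.35 with median-centred libraries, and 0.50 to 0.81 with 1 library left out. Median-centring moved the fitted genes by a median of -0.30 and the library factors by -0.23. Every fitted gene was listed by the authors as different, so the library median is no neutral reference. With centring the median log2 fold change over all fitted genes went from -0.22 to -0.51. The methyltransferases minus PHF8 and TET3 gave 0.0465 with a pseudocount of 0.1, 0.0698 without one, and -0.06 to 0.002 with 1 library left out. With the filter at 5, where fewer genes were tested, limma called 118 genes higher and 85 lower. Genes called higher by limma numbered 142 to 240 with 1 library left out, the lowest without peptide E replicate 2. Genes called lower numbered 250 after median-centring, 246 with the library factors, and 38 to 173 with 1 library left out; leaving out peptide E replicate 2 gave the 38, DOX replicate 3 gave 44 and DOX replicate 1 gave 49. The cause was not tested. With a replicate block limma called 238 higher and 124 lower. Same-numbered libraries deviated together across genes with correlations of 0.336, -0.0421 and -0.0924 for replicates 1, 2 and 3, so the numbers were not taken to pair the samples. DOX replicate 2 with peptide E replicate 3 gave 0.361, and DOX replicate 3 with peptide E replicate 2 gave 0.2535. The remaining pairs of unlike number were negative, from -0.2863 to -0.04886. Whether libraries were paired under other numbers was not tested.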

Other observations

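The share of listed genes that were higher with peptide E varied with the level. Of 148 listed genes with an overall mean of 1 to 3, which held 5 of the 7, 87 were listed higher with peptide E. Of 180 with a mean of 3 to 10, which held ASH1L, 104 were higher, and of 157 with a mean under 1, which held SETD1B, 67 were higher. Of 111 genes with a mean of 10 to 100, 35 were higher, and of 37 with a mean of at least 100, 0 were. In the genes listed lower, replicate 3 was the highest peptide E library in 88 of 340 and replicate 1 the lowest in 112. Their median deviation from the DOX mean, on the log2(value + 1) scale, was -0.29, -0.37 and -0.44 in peptide E replicates 1, 2 and 3. As deposited, this median thus lay furthest from DOX in replicate 3, as in the genes listed higher.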
